A study of Mus musculus with 4 samples.

Results

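Tfpi, the gene for tissue factor pathway inhibitor, and 9 further genes of coagulation and of plasminogen activation were described in c-Kit high leukemic cells that lacked Msi2, which encodes a Musashi protein that binds RNA. The 10 genes were Tfpi, Tfpi2, F3, F7, F10, F13a1, Thbd, Procr, Plaur and Plau, found by their symbols among 23284 gene rows. All 10 had enough counts to enter the test across genes, which covered 13215 genes. The set was chosen by results of the same comparison, in which Tfpi was known to be far lower without Msi2. Differences of the 10 genes between genotypes are therefore given as a description, with no test. RNA had been sequenced from leukemic cells sorted for a high level of c-Kit, a receptor of immature blood cells, from C57BL/6 mice with an MLL-driven leukemia. The study compared 2 libraries of genotype Msi2 -/-, called knock-out here, with 2 control libraries of genotype Msi2 flox/flox, whose alleles carry loxP sites. The titles number the libraries of a group as replicates, and each library is called a mouse here. The MLL fusion partner, the driver of the deletion, the age of the mice and the number of leukemia clones were not stated in the labels used here.

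Clotting outside the vessel wall starts when tissue factor, the membrane protein encoded by F3, binds the activated form of the protease factor VII, encoded by F7. This complex activates factor X, encoded by F10, which with its cofactor makes thrombin. Tissue factor pathway inhibitor uses Kunitz domains, small protease-inhibiting folds, to block factor Xa and then the complex of tissue factor and factor VIIa. Thrombomodulin (Thbd) and the endothelial protein C receptor (Procr) turn thrombin toward activation of protein C, an anticoagulant protease. Urokinase (Plau) and its receptor (Plaur) activate plasminogen, which dissolves fibrin. Tissue factor and urokinase receptor are known from myeloid cells, and disturbed clotting is a known complication of acute leukemias.

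The labels were checked first. Msi2 had 2804 and 3562 counts in control 1 and control 2, against 8 and 17 in knock-out mice 1 and 2, or 41.7 ± 10.1 against 0.156 ± 0.0915 CPM (SD, n = 2 each). CPM relate counts to library size, per 1e+06 counts. Kit stood between 50.4 and 68.1 CPM in the 4 libraries, Hoxa9 between 127 and 162 CPM and Meis1 between 67.6 and 96.6 CPM, so the marker genes of the sorted progenitors were present in each. Xist, expressed from the inactive X chromosome of female cells, stood at 1455 and 654 CPM in the control animals and at 0.469 and 0.624 CPM in the knock-out mice. Summed over Uty, Kdm5d, Ddx3y and Eif2s3y, Y-linked expression was 41.1 and 184 CPM in the control mice and 224 and 242 CPM in the knock-out mice. Both control libraries thus held Xist and Y-linked RNA together, a mix whose source is not known here. The groups are therefore not plainly female against male, and a control library may hold cells of more than 1 animal. Sex is not given in the labels, so genotype and sex of the cells cannot be told apart in any difference below. Gene counts totalled between 72273679 and 87564774 per library, and 3 counts correspond to between 0.0343 and 0.0415 CPM.

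Because Tfpi carries the largest difference of the set, the stretches around its 2 start sites in the RefSeq promoter table (GRCm38.p6) are shown, from 250 bases before to 50 bases after each start, on the minus strand and read 5′ to 3′. The counts are per gene, on another build (mm9), and do not tell which start was used. Capitals mark matches to 8 motifs searched on both strands: TGGGAA (core of Ikaros family sites), TGANTCA (AP-1 sites), TTGCNNAA (C/EBP sites), ACTTCCT (ETS sites), AGATAA (sites of the factor Gata1 and its relatives), TGTGGT (RUNX sites), GGGCGG (SP1 sites) and TATAAA (the core promoter box).
Tfpi start 1, chr2:84476710-84477009: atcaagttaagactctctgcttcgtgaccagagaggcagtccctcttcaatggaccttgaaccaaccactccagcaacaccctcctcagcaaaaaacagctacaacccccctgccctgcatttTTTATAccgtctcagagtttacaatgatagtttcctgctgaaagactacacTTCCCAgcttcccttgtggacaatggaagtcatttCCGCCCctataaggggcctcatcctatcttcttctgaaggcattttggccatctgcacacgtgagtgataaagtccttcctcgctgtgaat
Tfpi start 2, chr2:84474125-84474424: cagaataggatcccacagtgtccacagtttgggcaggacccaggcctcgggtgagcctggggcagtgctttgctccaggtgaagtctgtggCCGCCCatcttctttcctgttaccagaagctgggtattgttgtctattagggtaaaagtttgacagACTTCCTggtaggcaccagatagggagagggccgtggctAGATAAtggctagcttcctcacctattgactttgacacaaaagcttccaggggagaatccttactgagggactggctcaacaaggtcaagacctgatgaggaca
The first stretch held a match to the TATA box letters, the Ikaros core and the SP1 letters, all on the opposite strand, beginning 127, 76 and 41 bases before the start. The second held the SP1 letters on the opposite strand and the ETS and GATA letters on the gene's strand, beginning 159, 93 and 54 bases before the start. No 2 of these matches overlapped. Among 32851 promoter stretches of the same length, 25.6% held the Ikaros core, 35.7% the SP1 letters, 13.6% the TATA box letters, 9.35% the ETS letters and 11.2% the GATA letters. The AP-1, C/EBP and RUNX letters, found in 7.81%, 10.8% and 16.8% of all stretches, had no match in either window. A match of letters describes the sequence and does not show that a factor binds there.

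Tfpi was far lower in both knock-out mice. It had 2222 and 1407 counts in control 1 and control 2 and 131 and 137 counts in knock-out mice 1 and 2. In CPM these were 27.4 and 19.3 in the controls against 1.5 and 1.78 in the knock-out mice. Both knock-out mice thus lay below both controls, and the knock-out mice were close to each other, with a ratio of 1.19 between them against 1.42 between the controls. The means were 23.4 ± 5.73 and 1.64 ± 0.199 CPM (SD, n = 2 each), and the fitted log2 fold change was -3.83 (SE 0.266), or 14.2-fold lower. It was the 76th lowest fold change of the 13215 genes tested, when ranked with the lowest first. With each library left out in turn the log2 fold change ran from -4.06 to -3.55. In bulk samples such as these, fewer cells of a type and less RNA per cell cannot be told apart.

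**Figure D1:**
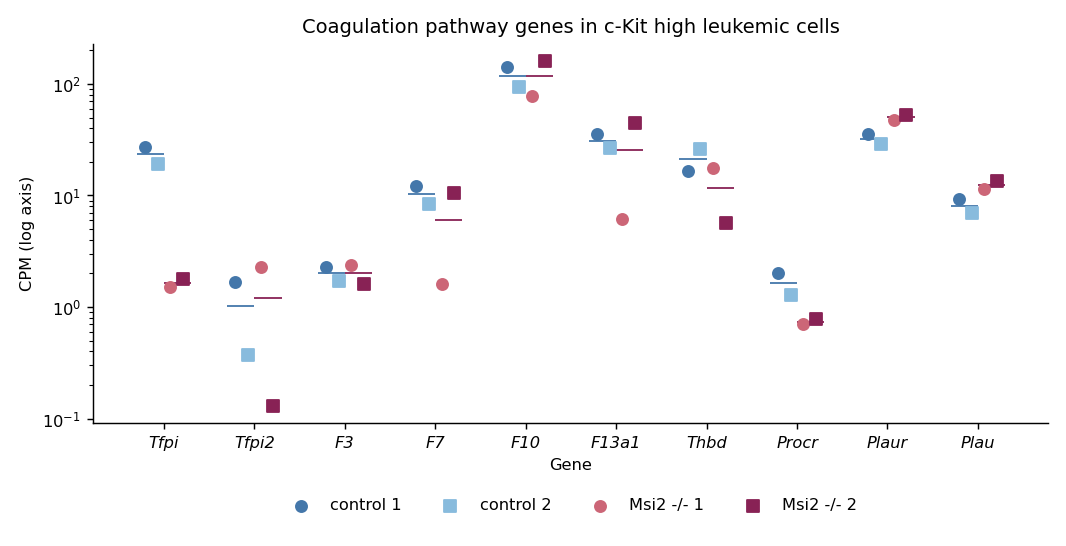
Levels of the 10 genes in each of the 4 libraries, in CPM on a log axis; points are libraries (circles, mouse 1; squares, mouse 2) and short lines are group means of 2 mice. The Tfpi points of the knock-out mice sit at 1.5 and 1.78 CPM, below both controls at 27.4 and 19.3 CPM, while for F7, F10, F13a1, Thbd, F3 and Tfpi2 the groups overlap.

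Tfpi2, the gene for a second inhibitor of the Kunitz family, had no common direction in the knock-out mice. It stood at 1.67 and 0.370 CPM in the control animals and at 2.27 and 0.13 CPM in the knock-out mice, from 135, 27, 198 and 10 counts. Each group held a mouse with a high and a mouse with a low level, so the groups overlapped. The ratio of the higher to the lower mouse was 4.50 in the controls and 17.4 in the knock-out mice, the widest of the 10 genes in both groups. The log2 fold change of 0.24 (SE 1.42) carried no stable direction: it was -2.95 without knock-out mouse 1, -0.47 without control 2, 1.15 without knock-out mouse 2 and 1.69 without control 1.

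F3, the gene for tissue factor, stood at a low level in all 4 mice. It stood at 2.31 and 1.70 CPM in the control animals and at 2.39 and 1.62 CPM in the knock-out mice, so the groups overlapped. Its log2 fold change was 0.00 (SE 0.361), with values from -0.29 to 0.26 when a library was left out and a sign that turned with upper-quartile scaling (-0.02). Per kilobase of exon, Tfpi stood 5.50 and 5.25 times as high as F3 in control 1 and control 2, and 0.290 and 0.507 times as high in knock-out mice 1 and 2. The inhibitor transcript therefore exceeded the tissue factor transcript per kilobase in both controls and was below it in both knock-out mice. For knock-out mouse 2 this order rested on the exon lengths: without them Tfpi stood above F3, at 1.78 against 1.62 CPM. The order in knock-out mouse 1 and in both controls was the same in CPM.

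F7 and F10, the genes for the clotting proteases of the set, differed more between the knock-out mice than between the genotypes. F7 stood at 12.2 and 8.41 CPM in the controls, at 1.62 CPM in knock-out mouse 1 and at 10.5 CPM in knock-out mouse 2. Only mouse 1 was low, and the log2 fold change of -0.77 (SE 0.898) was 0.04 without that mouse and -2.66 without mouse 2. F10 stood at 142.7 and 94.1 CPM in the control animals and at 77.4 and 159.8 CPM in knock-out mice 1 and 2, which enclosed both controls. Its group means were 118 ± 34.3 and 119 ± 58.3 CPM (SD, n = 2 each), with a log2 fold change of 0.00 (SE 0.412) that turned sign with upper-quartile scaling (-0.02). Without knock-out mouse 1 or control 1 it was 0.44 or 0.34, and without knock-out mouse 2 or control 2 it was -0.61 or -0.26. F7 and F10 are direct neighbours on chromosome 8, with 0 protein-coding genes between them in the RefSeq table. Their ratio was not constant: per kilobase, F10 stood 7.96 and 7.62 times as high as F7 in the controls, and 32.4 and 10.4 times as high in knock-out mice 1 and 2.

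F13a1, which encodes the A subunit of factor XIII, the enzyme that crosslinks fibrin, had the same low mouse. It stood at 35.3 and 26.6 CPM in the controls, at 6.18 CPM in knock-out mouse 1 and at 44.7 CPM in knock-out mouse 2. The groups overlapped, and the log2 fold change of -0.28 (SE 0.922) was 0.54 without mouse 1 and -2.32 without mouse 2. F13a1 is a gene of monocytes and macrophages, and 11 markers of these cells, Adgre1 matched by its older symbol Emr1, were summed beside it. The sums were 237 and 353 CPM in the control mice and 159 and 518 CPM in knock-out mice 1 and 2, and 9 of the 11 markers were higher in mouse 2 than in mouse 1. Ccr2, a monocyte chemokine receptor gene, made up most of the difference, at 20.0 CPM in mouse 1 and 312 CPM in mouse 2. Single markers did not all follow the sum. Of the 9 tested, 4 (Csf1r, Cd68, Cd14 and Klf4) were higher in both knock-out mice than in both controls. Another 3 (Cx3cr1, Irf8 and Ly86) were lower in both, beside 23.7% higher and 24.6% lower without overlap over all tested genes. Klf4 and Ms4a7, which mark mature monocytes and macrophages, were under 1 CPM in every library. The part of such cells in the levels of F7, F10 and F13a1 was not tested.

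Mecom, a stem cell transcription factor gene on the marker lists, was named after its values were seen. It had the same pattern as F7 and F13a1 with a wider gap. It stood at 8.78 and 9.73 CPM in the controls, at 0.0343 CPM in knock-out mouse 1 and at 13.1 CPM in mouse 2. The 6 stem cell markers together summed to 52.5 and 48.7 CPM in the control mice and to 38.5 and 50.6 CPM in the knock-out mice. Only 2 of the 6, Mecom included, were higher in knock-out mouse 2 than in mouse 1. Hlf went the other way, at 3.54 CPM in mouse 1 and 0.572 CPM in mouse 2. The 10 neutrophil markers summed to 1080 and 740.2 CPM in the control mice and to 1437 and 2309 CPM in the knock-out mice. Most of that sum came from S100a8, S100a9 and Ngp. Of the 9 neutrophil markers tested 7 lay above 0 and 2 below: Cxcr2, at 6.59 and 9.40 against 1.58 and 3.57 CPM without overlap (log2 difference -1.63), and Mmp8, with overlapping groups (log2 difference -1.81).

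**Figure D2:**
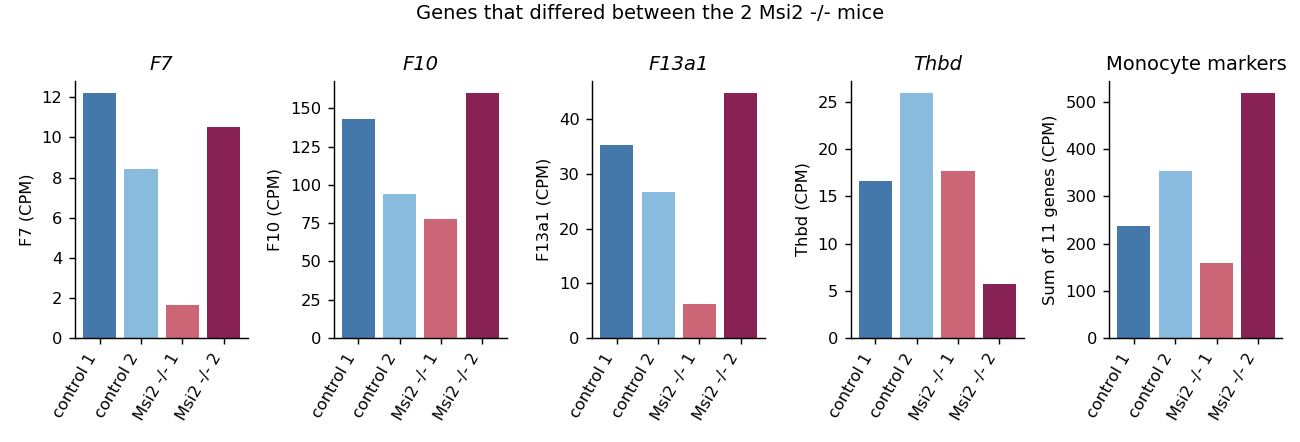
CPM of F7, F10, F13a1 and Thbd and the summed CPM of 11 monocyte and macrophage markers, 1 bar per library, axes from 0. Knock-out mouse 1 is the lowest library for F7, F10, F13a1 and the marker sum, and knock-out mouse 2 is the lowest for Thbd at 5.72 CPM. The difference in the marker sum between the knock-out mice is mostly Ccr2, and single markers differed in direction.

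Thbd, the gene for thrombomodulin, was low in the other knock-out mouse. It stood at 16.6 and 25.9 CPM in the controls, at 17.6 CPM in knock-out mouse 1 and at 5.72 CPM in mouse 2. Mouse 1 lay between the controls, so the groups overlapped. The log2 fold change of -0.86 (SE 0.598) was -0.27 without mouse 2 and -1.88 without mouse 1.

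Procr, the gene for the endothelial protein C receptor, which also marks blood stem cells, was lower in both knock-out mice at a low level throughout. Counts were 164 and 93 in the controls and 61 and 60 in the knock-out mice, or 2.02 and 1.28 CPM against 0.698 and 0.780 CPM. The groups did not overlap, and the log2 fold change was -1.16 (SE 0.389), or 2.23-fold lower. Without control 1 it was -0.78, the smallest difference with a library left out, and without control 2 it was -1.45.

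Tfpi, Thbd and Procr are known from endothelial cells, whose markers were therefore examined. Of 9 endothelial markers, 6 (Cdh5, Tek, Kdr, Emcn, Esam and Cldn5) were under 1 CPM in every library, and Emcn had 0 counts in each. The 9 markers summed to 92.2 and 117 CPM in the control mice and to 70.9 and 209 CPM in knock-out mice 1 and 2, nearly all of it from Pecam1 and Egfl7, which blood cells express as well. Pecam1 alone stood at 58.8 and 72.8 CPM in the control animals and at 24.6 and 166 CPM in the knock-out mice. The 8 megakaryocyte and platelet markers summed to between 5.41 and 12.4 CPM. The 6 erythroid, 4 B cell and 3 matched T cell markers were each under 1 CPM in every library.

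Plaur and Plau, receptor and ligand of the urokinase system, were both higher in the knock-out mice. Plaur stood at 35.6 and 28.7 CPM in the control animals and at 47.8 and 52.7 CPM in the knock-out mice. Plau stood at 9.30 and 6.91 CPM in the control animals and at 11.4 and 13.4 CPM in the knock-out mice. For both genes each knock-out mouse lay above each control, with log2 fold changes of 0.64 (SE 0.144) for Plaur and 0.61 (SE 0.225) for Plau, or 1.56-fold and 1.53-fold higher. The direction held with each library left out, from 0.50 to 0.81 for Plaur and from 0.42 to 0.85 for Plau. The ratio of receptor to ligand transcript per kilobase was nearly the same in the 4 libraries, at 3.46, 3.75, 3.78 and 3.57 in control 1, control 2 and knock-out mice 1 and 2.

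**Figure D3:**
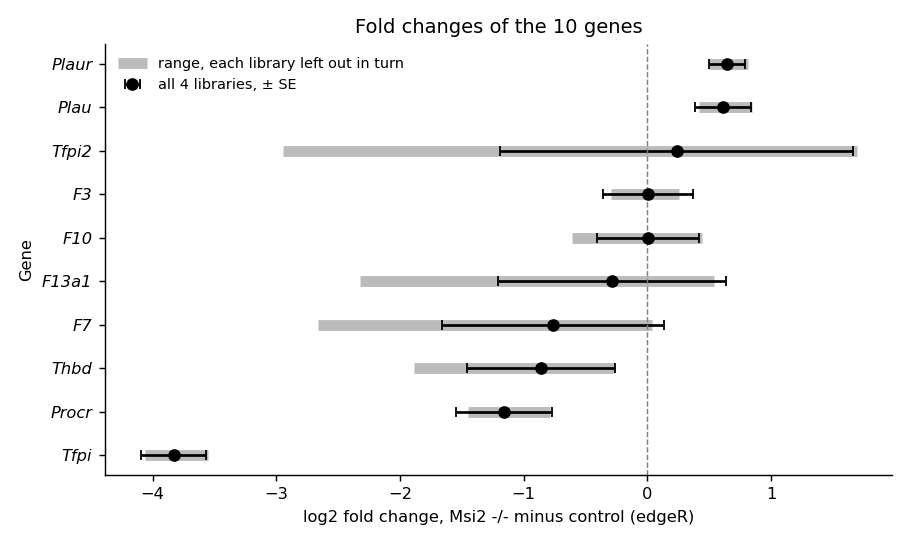
Log2 fold changes of the 10 genes, Msi2 -/- minus control, from the edgeR fit over all genes; points are the values with 4 libraries, bars are SE, and grey bands span the values with each library left out. The bands of Tfpi, Procr and Thbd lie below 0 and those of Plaur and Plau above 0, and the other 5 cross 0.

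Of the 10 genes, 2 (Plaur and Plau) were higher without overlap of the groups and 2 (Tfpi and Procr) lower, where 23.7% of all tested genes were higher and 24.6% lower without overlap. By edgeR's quasi-likelihood test with an adjusted p under 0.05, 0 of the 10 were called, beside 0.00757% of all genes (1 gene). Limma-voom called 0 of the 10 and 0 of all genes. DESeq2 called 1 higher (Plaur), beside 3.12% of all genes, and 1 lower (Tfpi), beside 2.73%. As the set was chosen on this comparison, nothing is read from these counts. The log2 fold changes lay above 0 for 5 genes and below 0 for 5, with a median of -0.14 against 0.00 over all tested genes. Differences between mice of 1 genotype were wide for this set: in the knock-out mice 5 of the 10 genes (Tfpi2, F7, F10, F13a1 and Thbd) differed more than 2-fold, as did 12.1% of all tested genes, and in the controls 1 (Tfpi2), as did 6.82%.

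Levels were ordered per kilobase of merged exons (GENCODE M21 lengths). In the controls F10 was highest at a mean of 43.4 CPM per kilobase, followed by Plaur at 12.3, and these 2 did not overlap with each other or with any other gene of the set. Thbd at 5.70, F7 at 5.54, F13a1 at 4.60, Tfpi at 4.28 and Plau at 3.43 CPM per kilobase followed, each with a range that overlapped its neighbours in this order. Procr at 0.812, F3 at 0.793 and Tfpi2 at 0.583 CPM per kilobase were lowest, and their ranges overlapped too. In the knock-out mice F10 at 43.4 and Plaur at 19.2 CPM per kilobase kept the first places, and Tfpi moved from sixth to last at 0.30, just below Procr at 0.364. The ranges of Tfpi (0.274 to 0.326) and Procr (0.344 to 0.384) did not overlap. Last place holds for the means only. Tfpi2 stood at 1.30 and 0.0744 CPM per kilobase in knock-out mice 1 and 2, a range that enclosed both genes, and was the lowest in mouse 2.

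Genes like Tfpi across the 4 libraries were sought by Euclidean distance between centred log2(CPM + 0.5) values. Only genes with a mean log2 value of at least 3 were compared. Tfpi itself lay below that value, so genes at its own level or lower were left out, however alike. The 5 nearest of the genes compared were Serpinf1, Acot7, Fnbp1l, Ppic and Slc32a1. Their distances were 1.11, 1.19, 1.20, 1.39 and 1.42. Serpinf1, which encodes the secreted serpin PEDF, stood at 22.6 and 34.4 CPM in the control animals and at 1.78 and 4.59 CPM in the knock-out mice (log2 difference -3.16, SE 0.553). Acot7, an acyl-CoA thioesterase gene, stood at 44.4 and 47.0 CPM in the control animals and at 8.66 and 8.48 CPM in the knock-out mice, the most even pair of the 5. Fnbp1l, a gene for a membrane-bending protein that acts on actin, stood at 45.1 and 68.6 CPM in the control animals and at 5.38 and 11.3 CPM in the knock-out mice. Ppic, for the prolyl isomerase cyclophilin C, stood at 51.1 and 29.8 against 7.97 and 9.76 CPM, and Slc32a1, for a vesicular transporter of inhibitory amino acids, at 26.6 and 21.4 against 1.85 and 7.12 CPM. Each was lower in both knock-out mice than in both controls, with log2 fold changes of -2.41 for Acot7, -2.77 for Fnbp1l, -2.19 for Ppic and -2.42 for Slc32a1. Without knock-out mouse 2 the values were -3.99 for Serpinf1, -3.40 for Fnbp1l and -3.69 for Slc32a1, and without mouse 1 the value for Slc32a1 was -1.74. With 4 libraries in 2 groups, likeness to Tfpi is mostly likeness of the fold change, and these genes were named for it with no test.

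The wider pathway was examined in 5 lists of 59 further genes. All 59 were matched, 3 of them by an older symbol, and 35 had enough counts to be tested. Over all genes tested, edgeR's quasi-likelihood test called 0 of the 35 higher and 0 lower, beside 0.00757% of all genes (1 gene). Limma-voom called 0 of the 35 and 0 of all genes. As these 2 tools called almost nothing anywhere, their counts here and in each list below say little about the lists. DESeq2 called 2 higher (Serpinb2 and Ambp) and 0 lower, beside 3.12% higher and 2.73% lower over all genes. At an unadjusted p under 0.05 edgeR had 4 of the 35 higher and 2 lower, beside 6.69% and 6.17% of all genes. Without overlap of the groups, 10 were higher and 7 lower, beside 23.7% and 24.6% of all genes. The median log2 fold change of the 35 was 0.16, against 0.00 over all genes.

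Clotting factor genes differed widely in level. Of 18 genes for clotting factors and their synthesis 8 were tested, and F11, Fga, Fgb, Fgg and Kng1 had 0 counts in every library, which allows up to 0.0415 CPM in the shallowest. F2, F9, F12, F13b and Klkb1 also had too few counts to be tested. F5, for coagulation factor V and named here after its values were seen, stood at 30.2 and 21.1 CPM in control animals 1 and 2 and at 43.4 and 13 CPM in knock-out mice 1 and 2, which enclosed both controls (log2 difference 0.13, SE 0.612, adjusted p = 0.945 by edgeR). The other tested genes included 5 of the secretory and vitamin K pathways. Lman1, a cargo receptor for factors V and VIII, stood at 217 and 212 CPM in the control animals and at 179 and 193 CPM in the knock-out mice (log2 difference -0.21, SE 0.0713, adjusted p = 0.373 by edgeR). Mcfd2, its partner, ranged from 151 to 219 CPM. Ggcx, the vitamin K-dependent carboxylase gene, stood at 15.5 and 15.8 against 14.7 and 11.6 CPM (log2 difference -0.25, SE 0.174, adjusted p = 0.590 by edgeR). Of the 8, 3 lay above 0 and 5 below, with a median of -0.10, and edgeR and DESeq2 called 0.

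Among 10 genes for other anticoagulant proteins 6 were tested, and Proc and Serpina5 had 0 counts throughout. Pros1, for protein S, the cofactor that protein C and tissue factor pathway inhibitor share, stood at 25.4 and 9.66 CPM in the control animals and at 7.51 and 8.97 CPM in the knock-out mice. The groups did not overlap, but the log2 fold change of -1.09 (SE 0.50, adjusted p = 0.440 by edgeR) rested on control 1 and was -0.23 without it. Serpine2, for protease nexin 1, an inhibitor of thrombin and urokinase, ranged from 12 to 39.9 CPM (log2 difference -0.74, SE 0.494, adjusted p = 0.570 by edgeR) and was at -0.12 without control 2. Anxa5, for the phospholipid-binding annexin A5, was the most abundant of the list at 93.4 to 118 CPM, with overlapping groups. Of the 6, 4 lay above 0 and 2 below, with a median of 0.14, and edgeR and DESeq2 called 0.

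Fibrinolysis genes included the call of DESeq2 for Serpinb2, the gene for plasminogen activator inhibitor 2, which blocks urokinase. It stood at 0.543 and 0.535 CPM in the control animals and at 8.14 and 1.0 CPM in knock-out mice 1 and 2. Both knock-out mice lay above both controls, but the size came from mouse 1: the log2 fold change of 3.08 (SE 1.08, adjusted p = 0.374 by edgeR, 0.0343 by DESeq2) was 0.90 without mouse 1 and 3.91 without mouse 2. Thbs1, for thrombospondin 1, a matrix protein that binds plasminogen, stood at 29.7 and 101 CPM in the control animals and at 184 and 279 CPM in the knock-out mice (log2 difference 1.83, SE 0.639, adjusted p = 0.374 by edgeR, 0.221 by DESeq2). The controls differed 3.39-fold, and the value was 1.21 without control 1 and 2.97 without control 2. Anxa2, for the annexin that binds plasminogen at the cell surface, ranged from 110 to 219 CPM with overlapping groups. Plat, for the tissue plasminogen activator, had 0 counts in every library. Of 7 tested genes 6 lay above 0 and 1 below, with a median of 0.23, and edgeR called 0.

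Protease-activated and platelet receptors differed in direction among themselves. F2rl3, for the thrombin receptor PAR4, stood at 7.98 and 8.03 CPM in the control animals and at 13 and 11 CPM in the knock-out mice (log2 difference 0.59, SE 0.176, adjusted p = 0.349 by edgeR, 0.0565 by DESeq2). Itgb3, for the integrin beta 3 chain, stood at 17.2 and 15.1 CPM in the control animals and at 7.54 and 11.1 CPM in the knock-out mice (log2 difference -0.79, SE 0.244, adjusted p = 0.352 by edgeR, 0.0700 by DESeq2). F2r, for the thrombin receptor PAR1, was named after its values were seen: it stood at 1.76 and 2.83 against 0.995 and 0.299 CPM (log2 difference -1.82, SE 0.694, adjusted p = 0.396 by edgeR). Of the 8 tested genes of this list of 11, 5 lay above 0 and 3 below, with a median of 0.47, and edgeR and DESeq2 called 0.

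The other Kunitz-domain inhibitors held the second call of DESeq2, Ambp, which encodes the precursor of bikunin. It had 8 and 1 counts in control 1 and 2 and 184 and 39 counts in the knock-out mice, or 0.0987 and 0.0137 against 2.11 and 0.507 CPM (log2 difference 4.48, SE 1.18, adjusted p = 0.333 by edgeR, 0.0136 by DESeq2). Its log2 fold change ran from 3.12 without knock-out mouse 1 to 6.42 without control 1 among fits with a mouse left out, and at so few control counts the size is uncertain. Spint1, for an inhibitor of membrane serine proteases, stood at 15 and 14.2 CPM in the control animals and at 29.4 and 16.0 CPM in the knock-out mice (log2 difference 0.64, SE 0.32, adjusted p = 0.467 by edgeR). The difference was 0.14 without knock-out mouse 1 and 1.01 without mouse 2. App, for the amyloid precursor, ranged from 295 to 423 CPM and Spint2 from 162 to 225 CPM, both with overlapping groups. Of 6 tested genes 4 lay above 0 and 2 below, with a median of 0.16, and DESeq2 called Ambp alone. No tested gene of the 5 lists had a fold change as low as that of Tfpi. As Tfpi was chosen for its low value in this comparison, nothing is read from that.

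**Figure D4:**
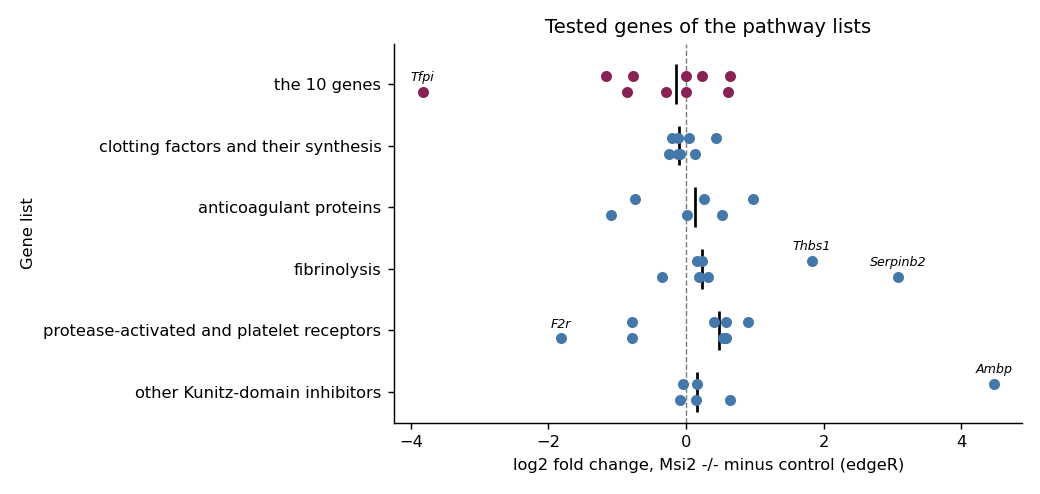
Log2 fold changes, Msi2 -/- minus control, of the 10 genes and of the 35 tested genes of 5 pathway lists; each point is a gene, black lines are list medians, and genes beyond 1.5 in either direction are named. Tfpi at -3.83 is the lowest point shown and Ambp at 4.48, which had 8 and 1 counts in the controls, the highest.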

How the data were processed

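RNA was sequenced from sorted c-Kit high cells in 4 libraries, each called a mouse here. The libraries were made with a TruSeq RNA kit and read at both ends, per the labels' protocols. The submitters' processing notes name Trimmomatic, STAR, HTSeq, DESeq and the mm9 build with no versions; how strand and overlapping genes were handled is not stated. The authors deposited raw counts per gene symbol without normalization. The 5 last rows hold reads of no gene (19.1% to 20.1% of a library) and were dropped.

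Groups were read from the titles. Replicates differed well beyond counting noise (chi-square per gene 51.7 for the controls, 125 for the knock-outs), and each mouse was kept as its own sample; the prefix of the library names, of unknown meaning, differs between the genotypes, and if it marks a batch, the 2 cannot be told apart. The main fit used edgeR 4.0.16 in R 4.3.3: filterByExpr (minimum count 10, total 15), TMM, a quasi-likelihood model with genotype alone, two-sided, Benjamini-Hochberg adjustment over 13215 genes, threshold 0.05. Unless another tool is named, every adjusted p and log2 difference (knock-out minus control) is from it; its SE is the size of the log2 fold change divided by the root of F. DESeq2 1.42.0 (13281 adjusted values) and limma-voom (limma 3.58.1) were alternatives. CPM use TMM-scaled totals. Exon lengths come from GENCODE M21 (GRCm38, not the build of the counts); 8 of the 10 genes were in the RefSeq promoter table. Fits were tested on simulated counts. A few list genes are not reported here by name.

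The 10 genes and all lists were chosen with earlier results of these data known. Beside Msi2 and the 10, each wider list gave its 2 tested genes of smallest p and 2 of highest mean CPM, and 5 genes were named for likeness to Tfpi. Other settings tried were upper-quartile or RLE scaling, no low-count filter, 1 CPM in at least 2 libraries, a prior count of 2, a replicate block and leaving out each mouse; for named genes other than the 10 these were added after the data were seen.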

Additional observations from a re-analysis of the deposited data

How the results depend on the processing

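The log2 fold change of Tfpi moved by less than the spread between replicates under all 12 alternatives, from -3.85 to -3.81 with all libraries and from -4.06 to -3.55 with 1 library left out. Over all genes edgeR called 0 higher and 1 lower; with no filter on low counts 6 were lower, DESeq2 had 414 higher and 362 lower, and for limma-voom 0 were lower. With the replicate number as a block edgeR called 0 lower, and the fold change of Tfpi was -3.81. Deviations of same-numbered libraries correlated at 0.0101, and nothing in the labels pairs them. With a library left out, edgeR called 0 to 23 genes higher and 0 to 83 lower, and 0 to 1 gene higher in the wider lists, where DESeq2 called 2. The larger counts arose without a knock-out library, when the spread came from the 2 controls and the lone knock-out mouse was assumed to vary like them.

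Signs of the fold change turned in 6 of 12 alternatives for F10, in 5 for F3, in 4 for Tfpi2 and in 1 each for F7 and F13a1, and in 0 for Tfpi, Thbd, Procr, Plaur and Plau; with all libraries F10 stayed between -0.07 and 0.01 and F3 between -0.02 and 0.01, whereas F13a1 ran from -0.97 to -0.28, F7 from -1.36 to -0.76 and Tfpi2 from -0.47 to 0.24, each lowest with limma-voom. With the replicate block these 3 were -0.87, -1.28 and -0.42. With 2 mice per group, a difference between genotypes cannot be separated from differences between single leukemias for any of these genes. For F7, F10, F13a1, Thbd and Tfpi2 the 2 knock-out mice themselves differed more than 2-fold. Depth limits Tfpi2, at 10 counts in its lowest library, and Ambp, at 1.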
